A study of Mus musculus with 8 samples.

Results

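The genes described here encode the enzymes and carriers that oxidise fatty acids in mitochondria and peroxisomes, measured as transcripts in the epididymal white fat of 8 obese male mice. They are 35 genes of 55487 gene identifiers in the tables, chosen by name for the step they serve: 6 for carnitine-dependent transfer, 19 for mitochondrial oxidation and 10 for the peroxisome. All 35 passed the filter on low values and were among the 14172 genes tested. The 4 AKO mice (numbers 3, 8, 9 and 11) carried floxed Slc16a1 on both chromosomes with the AP2-cre transgene, and their genotype is labelled Slc16a1 -/-. The 4 WT mice (numbers 2, 3, 4 and 5) carried the same floxed alleles without Cre. All 8 were C57BL/6 mice made obese on a high-fat diet, and their ages are not stated in the labels. Slc16a1 encodes MCT1, which carries lactate, pyruvate and ketone bodies across the plasma membrane. In the transgene the promoter of the fat cell gene Fabp4 (aP2) drives Cre. This promoter is known to be active in some other cell types too, and Cre and the floxed deletion cannot be told apart in this design.

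Long-chain fatty acids enter mitochondria as carnitine esters and are then shortened in rounds of dehydrogenation, hydration, oxidation and thiol cleavage, with the electrons passed on by the electron transfer flavoprotein. Peroxisomes shorten very long and branched chains with enzymes of their own and hand shortened acyl groups on to mitochondria. White fat cells mainly store triglyceride and release fatty acids, and macrophages in the fat pad of obese animals also take up and oxidise lipid.

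Levels are in TPM, which sets abundance per transcript length and brings every library to the same total, and a gene is the sum of its transcript rows. Read depth is unknown because TPM keeps none. Errors are SD over 4 mice per group. A difference is in log2(TPM + 1), AKO minus WT, from limma, with p-values adjusted over all 14172 genes (Benjamini-Hochberg, threshold FDR 0.05). Between 13968 and 14884 genes per library reached 1 TPM. Total Slc16a1 was 22.4, 21.5, 27.1 and 25.03 TPM in AKO mice 3, 8, 9 and 11, against 23.4, 28.5, 15.7 and 17.7 TPM in WT mice 2, 3, 4 and 5, and these ranges overlapped (exact permutation p = 0.429). Its transcript rows moved apart: the first ranged from 4.51 to 8.8 TPM in AKO fat and from 10.8 to 17.7 TPM in WT fat, without overlap, and the other from 13.6 to 22.5 TPM in AKO fat and from 0 to 14.4 TPM in WT fat. Which row holds the deleted stretch could not be told, so neither the totals nor the rows check the labels. Of 12 fat cell markers, 11 had a negative difference, with a median of -0.23, and all 10 macrophage markers had a positive one, with a median of 0.45. None of these 22 markers passed the threshold. Summed fat cell markers ranged from 31093 to 43547 TPM in AKO fat and from 29552 to 46331 TPM in WT fat, and summed macrophage markers from 3676 to 6477 TPM in AKO fat and from 2271 to 5353 TPM in WT fat. All 7 markers of lipid-associated macrophages had a positive difference, with a median of 1.22, none passed the threshold, and their sums ranged from 2198 to 4598 TPM in AKO fat and from 432 to 3712 TPM in WT fat. The 7 skeletal muscle markers summed to between 23.1 and 68.9 TPM in AKO fat and between 14.8 and 42.5 TPM in WT fat, mostly from Acta1, which was highest in AKO mouse 8 at 65.01 TPM. All 3 muscle markers tested had a positive difference, with a median of 0.33, while Ckm and Myh4 did not exceed 0.07 TPM in any mouse. Below the filter, Myh1 ranged from 0.12 to 0.21 TPM in AKO fat and from 0.22 to 0.33 TPM in WT fat. Tnnt3, also below it, averaged 0.25 TPM in AKO fat and 0.14 TPM in WT fat. The 6 brown or beige fat cell markers summed to between 66.4 and 123 TPM in AKO fat and between 49.1 and 129.6 TPM in WT fat, mostly from Cox8b and Cox7a1, and all 3 tested had a positive difference, with a median of 0.15. Among them Cox7a1 averaged 26.0 ± 3.34 TPM in AKO fat and 18.6 ± 3.05 TPM in WT fat, a difference of 0.47 (limma FDR 0.831), while Ucp1, the defining marker, did not exceed 0.83 TPM. The 6 epididymis epithelium markers were all below the filter. They summed to 8.4 TPM in AKO mouse 11, 7.71 TPM in WT mouse 4 and 4.75 TPM in WT mouse 3, and to at most 0.72 TPM in each other mouse. In whole fat, fewer cells of a type and less RNA per cell cannot be told apart, and the part of cell makeup in the differences below was not tested beyond the values given.

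None of the 35 genes passed the threshold, where 4 of 14172 genes did (0.0282%). The lowest FDR among them was 0.831 and the lowest unadjusted limma p was 0.105, for Eci2. The AKO and WT values overlapped for every one of the 35 genes, while 346 of all genes tested (2.44%) had groups that did not overlap. Leaving out WT mouse 3 made 3 of the 35 non-overlapping, beside 11.4% of all genes, leaving out AKO mouse 11 made 2, beside 7.3%, and leaving out AKO mouse 3 made 1, beside 4.19%. At an unadjusted p under 0.05 there were also 0 of the 35, beside 673 of all genes (4.75%). Differences were positive for 12 genes and negative for 23, with a median of -0.03. Over all genes tested, 7621 were positive and 6551 negative, with a median of 0.02.

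The 95% intervals of these differences were narrower than is typical of the genes tested. For 29 of the 35 genes (82.9%) the whole 95% interval lay within 0.5 on the log2 scale, that is within 1.41-fold in either direction, beside 60.2% of all genes tested. Within 0.25 on the log2 scale lay 6 of the 35. The median SE was 0.114 for the 35 genes and 0.135 for all genes. The narrowest interval was that of Etfdh, from -0.19 to 0.14. The 6 genes whose interval reached beyond 0.5 were Cpt1b, Acaa1b, Ehhadh, Acad11, Cpt1a and Pex11a, and for these a difference beyond 1.41-fold in at least 1 direction lies within the error.

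**Figure D1:**
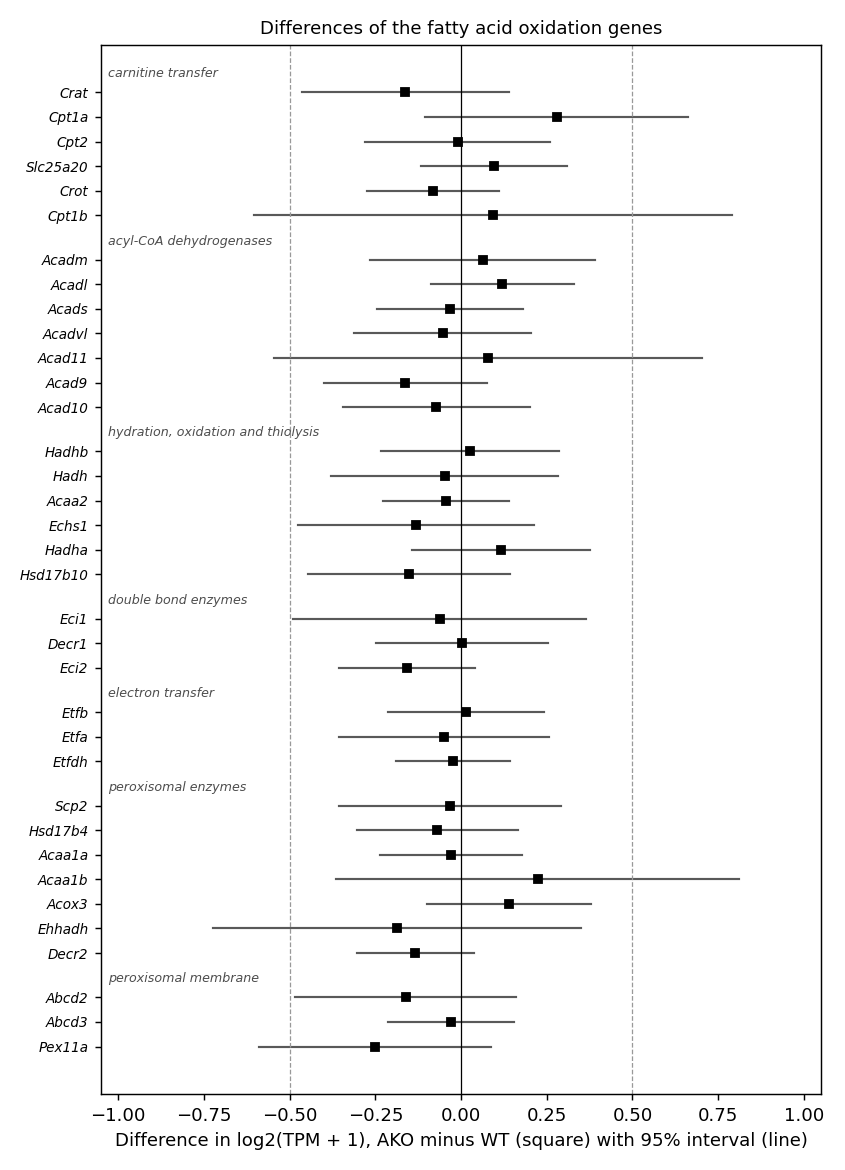
Difference of each of the 35 genes between AKO and WT fat in log2(TPM + 1) (squares, AKO minus WT) with its 95% interval (lines), from limma over all genes, 4 mice per group; dashed lines mark 0.5 on either side of 0. Every interval crosses 0, and 29 of 35 stay between the dashed lines.

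By level, 21 of the 35 genes had a mean of at least 100 TPM over the 8 mice, 12 lay between 10 and 100 TPM, and Acad10 and Cpt1b lay below 10 TPM. Together they held 0.615% of all TPM. The variation over the 8 mice was small for most, with coefficients of variation from 5.36% (Etfdh) to 40.8% (Cpt1b) and a median of 11.7%.

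**Figure D2:**
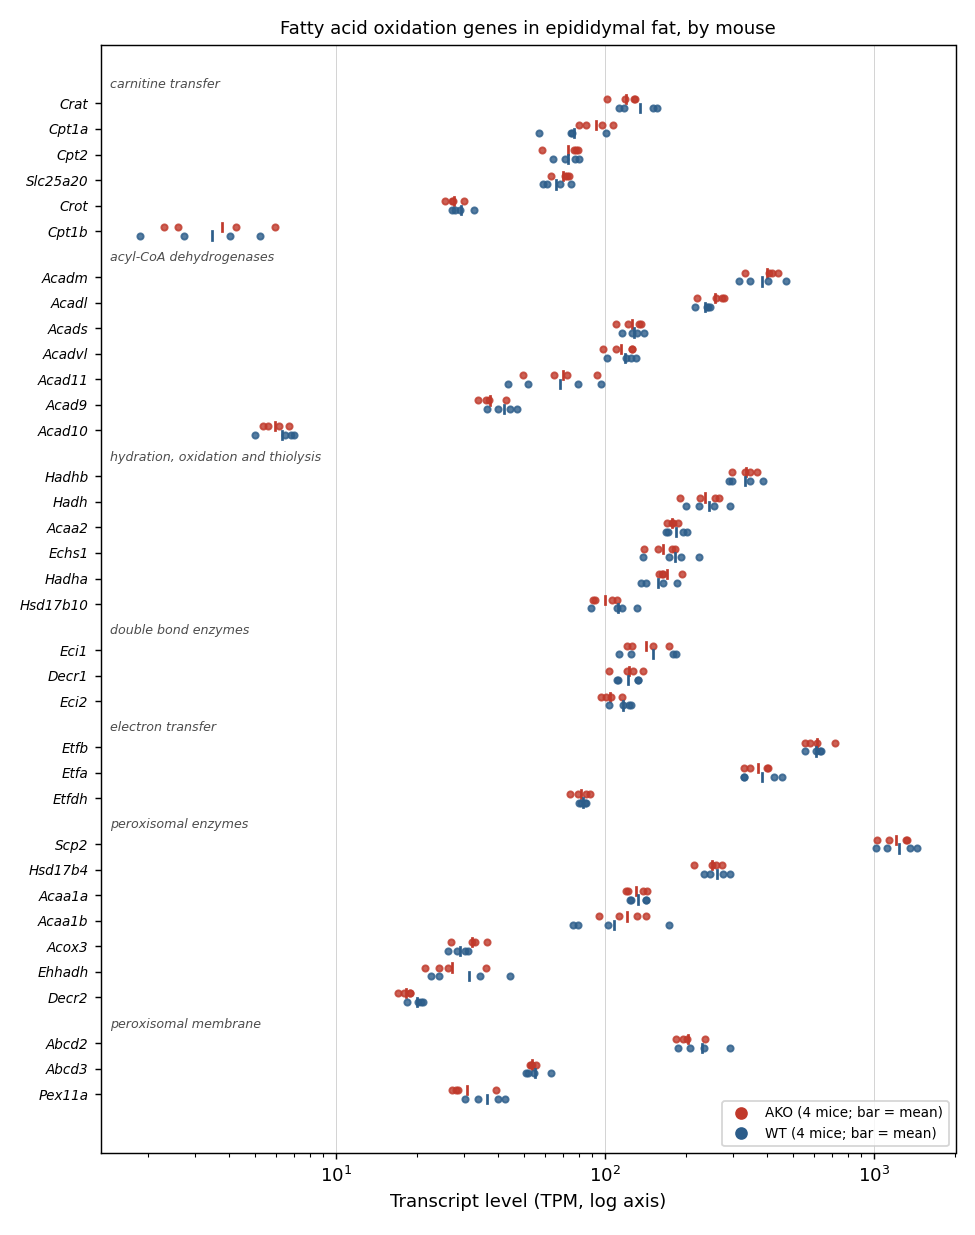
Transcript level of each gene in every mouse (TPM, log axis), AKO above WT within each gene, with points for mice and bars for group means, ordered by step and by level. The points of both groups overlap in every gene, from Scp2 at about 1223 TPM to Cpt1b at 3.62 TPM.

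Summed by step, the 3 steps showed no clear difference between the groups, and the sums were not tested. The 6 carnitine genes summed to 354, 393, 407 and 393 TPM in AKO mice 3, 8, 9 and 11, against 409.97, 384, 388 and 353 TPM in WT mice 2, 3, 4 and 5. The 19 mitochondrial genes summed to 3187, 3809.9, 3599.7 and 3947 TPM in the AKO mice, against 4014, 3353, 3883 and 3408 TPM in the WT mice. The 10 peroxisomal genes summed to 1806, 2207, 2010.2 and 2276 TPM in the AKO mice, against 2447, 1805, 2369.8 and 1959.7 TPM in the WT mice. In all 3 sums the groups overlapped and WT mouse 2 was the highest of the 8. AKO mouse 3 and WT mouse 5 were on the low side in all 3, and WT mouse 3 in the mitochondrial and peroxisomal sums. The log2 ratio of group means was 0.01 for the carnitine step, -0.01 for the mitochondrial step and -0.05 for the peroxisomal step, each smaller than the spread between mice. None of these signs was stable: leaving out 1 mouse at a time gave -0.026 to 0.052 for the carnitine step, -0.053 to 0.047 for the mitochondrial step and -0.12 to 0.021 for the peroxisomal step. Divided by the summed fat cell markers, the log2 ratio was 0.096 for the carnitine, 0.077 for the mitochondrial and 0.050 for the peroxisomal step. Fabp4 made up most of that marker sum, with 22237 of 36574 TPM on average in AKO fat and 21630 of 39162 TPM in WT fat. It was also the only 1 of the 12 markers with a positive difference (0.05), so these ratios mostly follow Fabp4.

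Relative to the mitochondrial sum, the peroxisomal sum was 57.0% ± 0.956 in AKO fat and 58.3% ± 3.42 in WT fat (SD, n = 4 each). Scp2 is the largest part of it. Without Scp2 the share was 23.9% ± 0.488 in AKO fat and 24.7% ± 0.991 in WT fat. The carnitine sum was 10.7% ± 0.638 of the mitochondrial sum in AKO fat and 10.5% ± 0.653 in WT fat. The peroxisomal share with Scp2 ran from 53.8% in WT mouse 3 to 61.0% in WT mouse 4, and from 55.8% to 57.9% among the AKO mice. The groups overlapped in each of these shares.

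**Figure D3:**
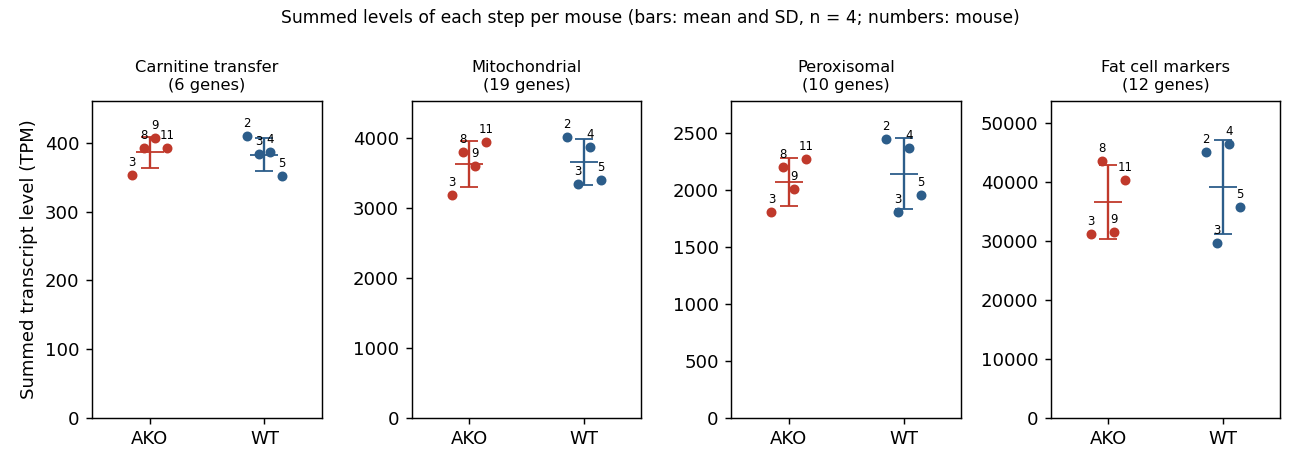
Summed TPM of the carnitine, mitochondrial and peroxisomal genes and of the 12 fat cell markers per mouse (points with mouse numbers), with group means and SD (n = 4), axes from 0. AKO mouse 3 and WT mouse 3 are low in the mitochondrial, peroxisomal and fat cell marker panels, and the AKO and WT points overlap in all 4.

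The carnitine step begins with Cpt1a and Cpt1b, the outer membrane palmitoyltransferases that malonyl-CoA inhibits and that set the rate of entry. Cpt1a (ENSMUSG00000024900), the form typical of liver, had the largest positive difference of the 35 genes. It stood at 97.7, 85.6, 107 and 79.9 TPM in AKO mice 3, 8, 9 and 11, against 74.95, 101, 57.1 and 75.9 TPM in WT mice 2, 3, 4 and 5. All 4 AKO values lay above 3 of the 4 WT values, and WT mouse 3 exceeded all but 1 AKO mouse. The difference was 0.28 (SE 0.168, 95% interval -0.10 to 0.66, limma FDR 0.831, exact two-sided permutation p = 0.171), and the interval included 0. The difference was 0.15 without WT mouse 4 and 0.42 without WT mouse 3 (limma FDR 0.332). With the fat cell marker score (the mean log2(TPM + 1) of the 12 markers) in the model it was 0.085. There Acaa1b at 0.33 and Acad11 at 0.33 stood highest. Acadl at 0.14, Acadm at 0.13, Eci1 at 0.13, Hadh at 0.10, Scp2 at 0.095 and Etfb at 0.088 also exceeded Cpt1a. Cpt1b, the form typical of muscle, averaged 3.78 ± 1.69 TPM in AKO fat and 3.47 ± 1.48 TPM in WT fat (SD, n = 4 each), the lowest level of the 35 genes. Its longest coding transcript shares 94.8% of its length, at 95% identity or more, with Gm44502, so its level is uncertain.

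The promoter of Cpt1a is shown because Cpt1a stood furthest to the positive side and because its window holds the hexamer AGGTCA, here on the minus strand. This hexamer is the letter core to which PPAR, RXR and related nuclear receptors bind. The window is chr19:3323051-3323350 on the plus strand (GRCm38.p6, RefSeq), from 250 bases before to 50 after the start, and the capitals mark the hexamer as read on the plus strand.
Cpt1a promoter: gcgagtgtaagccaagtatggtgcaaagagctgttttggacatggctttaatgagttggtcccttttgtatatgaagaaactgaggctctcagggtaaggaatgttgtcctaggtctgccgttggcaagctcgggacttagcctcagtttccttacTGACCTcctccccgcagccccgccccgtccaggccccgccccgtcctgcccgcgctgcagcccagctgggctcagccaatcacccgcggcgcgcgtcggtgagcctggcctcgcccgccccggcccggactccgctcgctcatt
Of the 35 genes, 28 had a window in the table, with 29 windows. The hexamer, searched on both strands, was in 5 of them (17.2%, those of Acadm, Acadvl, Cpt1a, Echs1 and Scp2), beside 16.3% of all 32851 windows. The pair of hexamers 1 base apart, AGGTCANAGGTCA, was in 0 of the 29 windows and 0.0396% of all. The longer form TCAAGGTCA, which contains the hexamer, was in 0 of the 29 and 0.423% of all. The share of windows with the hexamer was thus near that of all promoters.

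Past the outer membrane, Slc25a20 exchanges acylcarnitine for carnitine and Cpt2 rebuilds the acyl-CoA inside. Slc25a20 averaged 70.2 ± 4.66 TPM in AKO fat and 65.8 ± 7.21 TPM in WT fat, a difference of 0.10. Cpt2 averaged 73.2 ± 10.004 TPM in AKO fat and 73.3 ± 7.02 TPM in WT fat, a difference of -0.0089. Crat, which makes acetylcarnitine from spare acetyl-CoA, averaged 119.6 ± 12.9 TPM in AKO fat and 135 ± 22.5 TPM in WT fat, a difference of -0.16. The peroxisomal octanoyltransferase Crot averaged 27.4 ± 1.84 TPM in AKO fat and 29.1 ± 2.48 TPM in WT fat, a difference of -0.08. None of these carnitine genes differed by more than the spread between mice. As a ratio, Cpt1a over Cpt2 was 1.29 ± 0.304 in AKO fat and 1.08 ± 0.357 in WT fat (SD, n = 4 each; exact permutation p = 0.343).

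The acyl-CoA dehydrogenases take the first step of each round, each for its own chain length. Acadm, for medium chains, stood at 332, 409, 420.2 and 439.7 TPM in AKO mice 3, 8, 9 and 11, against 474, 346, 406 and 316 TPM in WT mice 2, 3, 4 and 5. Acadl, for long chains, stood at 219.7, 260.04, 273 and 277 TPM in the AKO mice, against 241, 239, 245 and 217 TPM in the WT mice. For Acadl, 3 AKO mice lay above every WT mouse and AKO mouse 3 below all but 1, and for Acadm the highest and the lowest value were both WT. The difference was 0.06 for Acadm (SE 0.144) and 0.12 for Acadl (SE 0.091, limma FDR 0.831). Without AKO mouse 3 the difference of Acadl was 0.19.

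Acadvl, which acts on very long chains at the inner membrane, averaged 115 ± 13.9 TPM in AKO fat and 119 ± 12.8 TPM in WT fat. Of the longest coding transcript of Acadvl, 39.8% is shared with Dvl2, so its level is uncertain. Acads, for short chains, averaged 126 ± 12.1 TPM in AKO fat and 129 ± 10.3 TPM in WT fat. Acad9, a dehydrogenase that is also an assembly factor of respiratory complex I, averaged 37.5 ± 3.86 TPM in AKO fat and 42.1 ± 4.62 TPM in WT fat, a difference of -0.16 with an interval from -0.40 to 0.08. Other genes share 25.4% of its longest coding transcript. Acad10 and Acad11 are less studied members of the family. Acad10 averaged 5.95 ± 0.584 TPM in AKO fat and 6.32 ± 0.887 TPM in WT fat, and 47.5% of its longest coding transcript is shared with Acad12, so its level is uncertain. Acad11 varied most among the dehydrogenases. It stood at 49.7, 93.9, 64.8 and 72.4 TPM in AKO mice 3, 8, 9 and 11, against 96.5, 43.8, 79.6 and 52.05 TPM in WT mice 2, 3, 4 and 5, and it is given per mouse because of this spread, seen in the values. Low and high mice occurred in both groups, and its difference was 0.08 (SE 0.274).

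Hydration, oxidation and thiol cleavage of long chains are done by the mitochondrial trifunctional protein, a complex of the products of Hadha and Hadhb. Hadhb (ENSMUSG00000059447) stood at 298, 332, 369 and 346 TPM in AKO mice 3, 8, 9 and 11, against 389, 348, 290.1 and 298 TPM in WT mice 2, 3, 4 and 5. Hadha (ENSMUSG00000025745) stood at 163, 159, 193 and 165 TPM in the AKO mice, against 165, 186, 136 and 143 TPM in the WT mice. WT mice 4 and 5 were low and AKO mouse 9 was high for both genes, and the groups overlapped. Differences were 0.12 for Hadha (SE 0.114) and 0.03 for Hadhb (SE 0.114). Hadha over Hadhb was 0.507 ± 0.0341 in AKO fat and 0.477 ± 0.0453 in WT fat (SD, n = 4 each; exact permutation p = 0.314). Of the longest coding transcript of Hadhb, 69.7% is shared with Gm13910, which makes its level, and with it this ratio, uncertain.

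These genes lie head to head on mouse chromosome 5, with start sites 273 bases apart, and the stretch that both RefSeq promoter windows share is shown because 1 stretch of DNA lies upstream of both subunits. It is chr5:30155003-30155230 (GRCm38.p6, RefSeq, plus strand), 228 bases between the start sites, with 57.0% G and C, beside a median of 52.7% over all promoter windows. It holds none of the motifs searched and so no capitals.
Hadha and Hadhb shared promoter stretch: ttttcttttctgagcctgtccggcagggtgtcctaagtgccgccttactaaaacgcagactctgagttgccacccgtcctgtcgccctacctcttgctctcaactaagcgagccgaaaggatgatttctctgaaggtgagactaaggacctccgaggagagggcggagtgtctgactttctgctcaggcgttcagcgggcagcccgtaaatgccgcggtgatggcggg

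For shorter chains the matrix enzymes Echs1 (hydratase), Hadh (hydroxyacyl-CoA dehydrogenase) and Acaa2 (thiolase) take over. Hadh stood at 190.01, 267, 226 and 257 TPM in AKO mice 3, 8, 9 and 11, against 255, 201, 293 and 224 TPM in WT mice 2, 3, 4 and 5, with low mice in both groups. Echs1 averaged 165 ± 19.9 TPM in AKO fat and 182 ± 35.3 TPM in WT fat, a difference of -0.13. Acaa2 averaged 179 ± 7.19 TPM in AKO fat and 185 ± 16.6 TPM in WT fat, a difference of -0.04. Hsd17b10, a dehydrogenase of branched short chains that is also a subunit of mitochondrial RNase P, averaged 100.03 ± 10.7 TPM in AKO fat and 112 ± 17.7 TPM in WT fat, a difference of -0.15.

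Unsaturated chains need Eci1 and Eci2, which shift double bonds, and Decr1, which reduces conjugated ones. Eci2, which works in mitochondria and peroxisomes, had the smallest unadjusted limma p of the 35 genes. It averaged 105 ± 7.95 TPM in AKO fat and 117 ± 9.67 TPM in WT fat, a difference of -0.16 (SE 0.087, 95% interval -0.36 to 0.04, limma FDR 0.831, exact permutation p = 0.114), and with the fat cell marker score in the model it was -0.080. Its 8 values ran from 96.96 to 116 TPM in AKO fat and from 103 to 125 TPM in WT fat, with overlap. Eci1 averaged 143 ± 24.1 TPM in AKO fat and 151 ± 36.8 TPM in WT fat. Decr1 averaged 123 ± 14.7 TPM in AKO fat and 122 ± 12.5 TPM in WT fat, a difference of 0.0021.

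Electrons leave the dehydrogenases through the electron transfer flavoprotein, a dimer of the Etfa and Etfb products, and its membrane-bound oxidoreductase Etfdh. Etfb stood at 557, 615, 578 and 717 TPM in AKO mice 3, 8, 9 and 11, against 634, 554, 637 and 609.8 TPM in WT mice 2, 3, 4 and 5. Etfa stood at 329.8, 401, 346 and 404 TPM in the AKO mice, against 458, 329, 427 and 329.8 TPM in the WT mice. Both groups held low and high mice for these genes, and the highest Etfb value was AKO mouse 11 while the highest Etfa value was WT mouse 2. Etfa over Etfb was 0.602 ± 0.0374 in AKO fat and 0.632 ± 0.0808 in WT fat (SD, n = 4 each; exact permutation p = 0.543). Of the longest coding transcript of Etfb, 70.1% is shared with Gm45233, so the level of Etfb and this ratio are uncertain. Etfdh was the steadiest of the 35 genes, at 81.8 ± 6.29 TPM in AKO fat and 82.9 ± 2.25 TPM in WT fat, a difference of -0.02.

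In the peroxisome, Scp2 encodes both a thiolase for branched chains and a sterol carrier protein, and its summed transcripts were the most abundant of the 35 genes. It stood at 1030.3, 1323, 1143 and 1333 TPM in AKO mice 3, 8, 9 and 11, against 1445, 1022, 1371 and 1119 TPM in WT mice 2, 3, 4 and 5. Hsd17b4, the bifunctional enzyme of branched and very long chains, stood at 215, 259, 250.5 and 274 TPM in the AKO mice, against 292, 234, 275 and 247 TPM in the WT mice. For both genes WT mouse 2 was the highest, AKO mouse 3 and WT mouse 3 were low, and the groups overlapped. The difference was -0.03 for Scp2 (SE 0.142) and -0.07 for Hsd17b4 (SE 0.103). Of the longest coding transcript of Scp2, 52.8% is shared with the pseudogene Scp2-ps2, so its level is uncertain.

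Acox3, an oxidase of branched chains, averaged 32.1 ± 3.99 TPM in AKO fat and 28.9 ± 2.26 TPM in WT fat, a difference of 0.14 (SE 0.105). Decr2, the peroxisomal dienoyl-CoA reductase, averaged 18.2 ± 0.864 TPM in AKO fat and 20.1 ± 1.18 TPM in WT fat. Its difference of -0.13 (SE 0.075, limma FDR 0.831) had the smallest exact permutation p of the 35 genes, 0.0857, where 4 against 4 mice can reach 0.0286. Ehhadh, the bifunctional enzyme of straight chains and a known PPARalpha target in liver, stood at 21.4, 26.1, 24.1 and 36.3 TPM in AKO mice 3, 8, 9 and 11, against 44.5, 22.5, 34.3 and 24.2 TPM in WT mice 2, 3, 4 and 5. AKO mouse 11 and WT mice 2 and 4 were high, and the difference was -0.19 (SE 0.235).

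Acaa1a and Acaa1b encode near-identical peroxisomal thiolases, both on chromosome 9. At 95% identity or more, 81.0% of the longest coding transcript of Acaa1a is shared with Acaa1b and 84.5% of that of Acaa1b with Acaa1a, so how reads were split between them is uncertain. Acaa1b stood at 94.9, 143, 132 and 113 TPM in AKO mice 3, 8, 9 and 11, against 174, 79.5, 103 and 75.96 TPM in WT mice 2, 3, 4 and 5. Acaa1a was steadier, from 119.6 to 144 TPM in AKO fat and from 124 to 143 TPM in WT fat. Acaa1b over Acaa1a was 0.928 ± 0.183 in AKO fat and 0.823 ± 0.387 in WT fat (SD, n = 4 each; exact permutation p = 0.429), and WT mouse 2 stood apart at 1.39. Adjusted over the 4 gene ratios given here, each p was 0.543.

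All 3 peroxisomal membrane genes had a negative difference, with a median of -0.16, and none passed the threshold. Abcd2 and Abcd3 encode transporters that bring fatty acyl-CoA into the peroxisome. Abcd2 averaged 204 ± 21.8 TPM in AKO fat and 231 ± 45.2 TPM in WT fat, a difference of -0.16. Abcd3 averaged 53.8 ± 1.32 TPM in AKO fat and 55.1 ± 5.5 TPM in WT fat, a difference of -0.03. Pex11a, which elongates peroxisomes as they divide, had the largest negative difference of the 35 genes. It stood at 26.95, 28.5, 28.03 and 39.4 TPM in AKO mice 3, 8, 9 and 11, against 30.3, 33.7, 42.5 and 39.95 TPM in WT mice 2, 3, 4 and 5. AKO mice 3, 8 and 9 lay below every WT mouse and AKO mouse 11 did not, and the difference was -0.25 (SE 0.148, 95% interval -0.59 to 0.09, limma FDR 0.831, exact permutation p = 0.171), or -0.16 with the fat cell marker score in the model.

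Many of the genes were highest or lowest in the same mice. WT mouse 4 held the highest of the 8 values for 13 of the 35 genes, WT mouse 2 for 10 and AKO mouse 11 for 6. AKO mouse 3 held the lowest value for 13 genes, WT mouse 3 for 8 and WT mouse 4 for 7. WT mouse 4 was thus the highest for many genes and the lowest for 7 others, which were Cpt1a, Cpt1b, Hadha, Hadhb, Slc25a20, Acaa2 and Acox3. The fat cell marker score was 9.78, 10.3, 9.68 and 10.2 in AKO mice 3, 8, 9 and 11, against 10.3, 9.70, 10.7 and 10.4 in WT mice 2, 3, 4 and 5. WT mouse 4 had the highest score, and AKO mice 3 and 9 and WT mouse 3 the lowest. Summed macrophage markers ran the other way, at 5644, 4552, 6477 and 3676 TPM in the AKO mice, against 3652, 5353, 2271 and 3510.1 TPM in the WT mice.

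With genotype in the model, the slope of log2(TPM + 1) on this score was positive for 27 of the 35 genes (77.1%), beside 42.9% of all genes tested. The median slope was 0.27 per unit of score, beside -0.06 over all genes. By step, it was positive for 15 of 19 mitochondrial genes, 9 of 10 peroxisomal genes and 3 of 6 carnitine genes. The steepest were Acad11 at 0.90 (SE 0.304), Eci1 at 0.67 (SE 0.180), Ehhadh at 0.63 (SE 0.304) and Echs1 at 0.60 (SE 0.107), and the slope of Hsd17b10 was 0.53 (SE 0.072). All 7 acyl-CoA dehydrogenases and all 3 double bond enzymes had a positive slope.

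Cpt1a went the other way at -0.70 (SE 0.101), as did Cpt1b at -0.68 (SE 0.431), Hadha at -0.39 (SE 0.110) and Acox3 at -0.29 (SE 0.125). The negative slopes of Hadhb at -0.15 (SE 0.167), Acaa2, Slc25a20 and Etfdh were smaller than or about as large as their SE. These slopes describe 8 libraries whose cell type markers vary between mice and which are scaled to the same total, and carry no test. Among other marker lists, the slope was positive for all 4 endothelial, all 5 mesothelial and all 3 red blood cell markers. Their medians were 0.60, 0.20 and 1.77. It was positive for 0 of 10 macrophage markers and 0 of 7 markers of lipid-associated macrophages. A positive slope on this score is thus not particular to genes of fat cells. With the score in the model, the median difference of the 35 genes was 0.04 and again 0 passed the threshold.

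**Figure D4:**
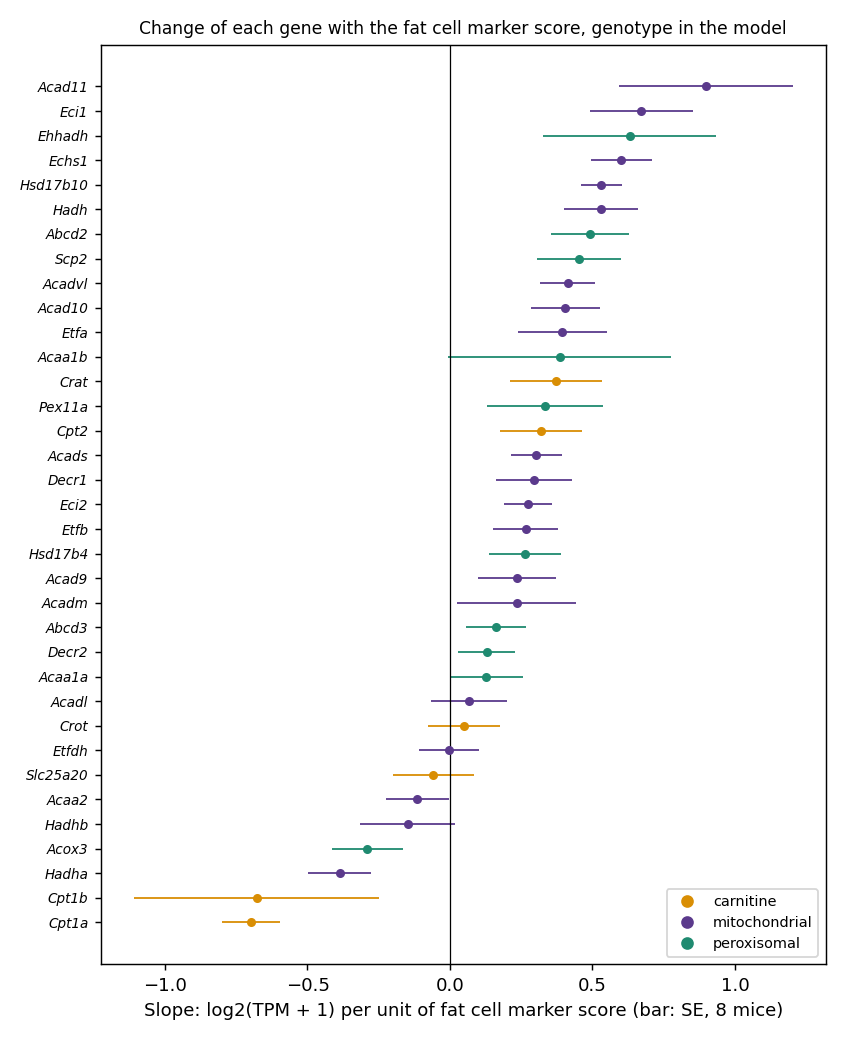
Slope of each gene's log2(TPM + 1) per unit of the fat cell marker score with genotype in the model (points) and its SE (bars), 8 mice, coloured by step. It is positive for 27 of 35 genes, from Acad11 at 0.90 to Cpt1a at -0.70.

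The tables hold 245 transcript rows for the 35 genes, and in 21 genes 1 row held over 90% of the gene. Of the 103 rows that passed the filter, 0 passed the threshold over 33323 rows, where 7 rows did (0.021%), and 3 had an unadjusted limma p under 0.05, as did 5.56% of all rows. The groups did not overlap for 2 of the 103 rows, 1 lower and 1 higher in AKO fat, beside 3.05% of all rows. The fifth row of Acad9, 14.9% of the gene, stood at 3.47, 0.20, 3.85 and 5.58 TPM in AKO mice 3, 8, 9 and 11, against 8.5, 6.67, 7.47 and 11.5 TPM in WT mice 2, 3, 4 and 5. All 4 AKO values lay below all 4 WT values, and the difference was -1.37 (SE 0.482, limma FDR 0.838). The other non-overlapping row, a row of Abcd3 with 2.55% of the gene, averaged 1.60 ± 0.165 TPM in AKO fat and 1.18 ± 0.205 TPM in WT fat, a difference of 0.26. The first row of Eci2 averaged 9.60 ± 1.74 TPM in AKO fat and 12.7 ± 1.40 TPM in WT fat, a difference of -0.38 (limma FDR 0.838). A minor row of Abcd2 averaged 1.64 ± 0.610 TPM in AKO fat and 0.648 ± 0.512 TPM in WT fat, a difference of 0.70 (limma FDR 0.838). The files do not say which transcript a row stands for.

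Around the pathway, 52 partner genes were listed and 47 were tested. Differences were positive for 14 and negative for 33 (7621 and 6551 over all genes tested), with a median of -0.05, and 0 passed the threshold. Acsl6, Bbox1, Ppargc1a and Slc27a2 were below the filter, and Tmlhe was not analysed here. Only Nudt19, which hydrolyses coenzyme A and acyl-CoA in peroxisomes, had an unadjusted limma p under 0.05 and groups that did not overlap, 1 of 47 partners beside 4.75% and 2.44% of all genes. It stood at 37.8, 34.5, 38.3 and 36.6 TPM in AKO mice 3, 8, 9 and 11, against 42.7, 47.5, 39.02 and 46.3 TPM in WT mice 2, 3, 4 and 5. Every AKO value lay below every WT value, and the difference was -0.24 (SE 0.081, limma FDR 0.831), so it did not pass over all genes.

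All 7 tested genes of the other peroxisomal group, Nudt19 among them, had a negative difference, with a median of -0.15. Phyh, which starts the oxidation of phytanic acid, averaged 103 ± 21.3 TPM in AKO fat and 134 ± 34.1 TPM in WT fat, a difference of -0.37. Slc25a17, the peroxisomal carrier of coenzyme A and related nucleotides, averaged 42.8 ± 2.58 TPM in AKO fat and 47.7 ± 2.66 TPM in WT fat, a difference of -0.15 (limma FDR 0.831). Of 15 peroxisome biogenesis genes, 12 had a negative difference, with a median of -0.08. Pex11g, of the family of Pex11a, averaged 6.67 ± 0.865 TPM in AKO fat and 5.47 ± 0.668 TPM in WT fat, a difference of 0.24, and Pex7, the receptor that imports Phyh and the thiolases, had one of -0.14.

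The 4 genes that turn propionyl-CoA from odd and branched chains into succinyl-CoA all had a negative difference, with a median of -0.21. Mmut averaged 46.6 ± 8.36 TPM in AKO fat and 58.99 ± 14.5 TPM in WT fat, a difference of -0.32, Pcca had a difference of -0.23 and Mcee one of -0.18. All 4 also had a positive slope on the fat cell score, with a median of 0.69. Partner lists varied in this: the slope was positive for 13 of 15 peroxisome biogenesis genes but for 1 of 6 fatty acid activation genes. Over all 47 partners tested it was positive for 30 (63.8%), with a median of 0.09.

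Among regulators, Pdk4, a target of PPARs that spares pyruvate while fat is burned, varied most. It stood at 80.7, 126, 141 and 106 TPM in AKO mice 3, 8, 9 and 11, against 179.6, 82.96, 44.97 and 57.3 TPM in WT mice 2, 3, 4 and 5. WT mouse 2 was the highest and the groups overlapped, with a difference of 0.49 (SE 0.393, limma FDR 0.837). The receptor Ppara averaged 2.41 ± 0.511 TPM in AKO fat and 3.01 ± 0.730 TPM in WT fat, a difference of -0.23, and its partner Rxra had a difference of -0.11. Of 6 regulators tested, 4 had a positive difference.

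Fatty acid activation, which makes the acyl-CoA that the pathway burns, split evenly with 3 positive and 3 negative differences, of which Acsf2 had 0.15, Acsf3 had -0.11 and Acsl4 had 0.10. For carnitine supply and malonyl-CoA control, the carnitine transporter Slc22a5 averaged 23.2 ± 0.879 TPM in AKO fat and 20.3 ± 3.88 TPM in WT fat, a difference of 0.20. Mlycd, which breaks down malonyl-CoA, had a difference of -0.11, and Aldh9a1, an enzyme of carnitine synthesis, had one of 0.21. The acyl-CoA thioesterases Acot1, Acot2 and Acot4, which release free acids, had differences of -0.10, 0.04 and 0.11. None of the genes in these lists passed the threshold, and a difference that misses it is not shown to be absent.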

How the data were processed

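RNA was sequenced from epididymal fat of 8 mice; per the labels' protocols frozen tissue was extracted with Trizol and sequenced as Illumina TruSeq libraries. The authors deposited TPM, 1 value for each of 152298 transcript rows per library, with the same total in each library. The submitters' processing notes name HISAT2, DESeq2 and build mm9, without saying what each was used for. Neither quantifier nor annotation is given in the sources used here, so no file coordinates are printed. Read depth is unknown, which leaves no counting interval.

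Rows were summed per gene. Genes reaching 1 TPM in 4 or more samples were fitted with limma 3.58.1 (R 4.3.3, mean-variance trend) on log2(TPM + 1), a scale that understates changes of low genes. Single values were compared with exact two-sided permutation tests over 70 arrangements. The fit was tested on simulated data. Genes were matched by symbol, Mmut under its older symbol. Sequence sharing was measured with blastn 2.17.0 against GENCODE M21 transcripts at 95% identity. Promoters are RefSeq's, on GRCm38.p6.

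The genes and lists were chosen with earlier results of these data known. Named are all 35 genes and, per partner list, up to 3 with the smallest p (1 of them is not reported here); values per mouse are given for the 8 most abundant of the 35, and others shown per mouse were chosen after their values were seen. The gene ratios and the sums divided by fat cell markers were also added after seeing the data. Mice of a group are separate animals per the series' design text.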

Additional observations from a re-analysis of the deposited data

Results flagged for a closer look

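A single mouse stood apart from the other 3 of its group, by its gap over the group's range, in 3 of 76 groups checked, where chance alone sets apart about 1 in 20. Cpt2 was 58.24 TPM in AKO mouse 3, below 77.1 to 79.3 TPM in the other AKO mice. Hadha was 193.04 TPM in AKO mouse 9, above 159 to 165 TPM in the other AKO mice. Pex11a was 39.37 TPM in AKO mouse 11, above 26.95 to 28.5 TPM in the other AKO mice.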

How the results depend on the processing

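No gene of the 35 passed the threshold under any of the alternatives tried, and the lowest FDR of a gene among the 35 was 0.332, without WT mouse 3. Transcript rows were refitted under fewer alternatives, and no row of these genes passed there. These were adding 0.1 in place of 1 to TPM, no filter on low values, median-ratio scaling and leaving out 1 mouse. Over all genes, 2 passed with a filter of at least 5 TPM, and between 1 and 5 when 1 mouse was left out. Non-overlapping genes among the 35 numbered 0 to 3 when 1 mouse was left out. The 3, without WT mouse 3, stood beside 11.4% of all genes, the 2 without AKO mouse 11 beside 7.3% and the 1 without AKO mouse 3 beside 4.19%. The log2 ratios of the summed steps changed sign when 1 mouse was left out, from -0.026 to 0.052 for carnitine, from -0.053 to 0.047 for mitochondrial and from -0.12 to 0.021 for peroxisomal genes, and all were positive when divided by fat cell markers. With the fat cell score in the model, differences were 0.085 for Cpt1a, -0.080 for Eci2 and -0.16 for Pex11a. The median difference of the 35 lay between -0.10 (without WT mouse 3) and 0.04 (fat cell score in the model). Of 594 recomputed values of single genes, 58 changed sign, in 19 genes, 3 of them by more than 1 SE. The cause was not tested.

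With the fat cell score in the model, differences of opposite sign were -0.10 for Cpt1b, 0.080 for Cpt2, 0.053 for Acads, 0.063 for Acadvl, 0.041 for Acad10, 0.036 for Echs1, 0.10 for Hadh, -0.015 for Hadhb, 0.13 for Eci1, 0.060 for Etfa, 0.0048 for Hsd17b4, 0.0067 for Acaa1a, 0.10 for Scp2 and 0.016 for Abcd3. Decr1 was -0.0066 with median-ratio scaling, -0.0082 without mitochondrial-genome genes and -0.023 with quality weights. Etfb was -0.00033 from the highest row and -0.027 with quality weights. When 1 mouse was left out, ranges that crossed 0 were -0.11 to 0.27 for Cpt1b, -0.069 to 0.10 for Cpt2, -0.080 to 0.028 for Acads, -0.026 to 0.17 for Acadm, -0.13 to 0.021 for Acadvl, -0.11 to 0.27 for Acad11, -0.13 to 0.050 for Hadh, -0.033 to 0.11 for Hadhb, -0.19 to 0.046 for Eci1, -0.060 to 0.079 for Decr1, -0.12 to 0.038 for Etfa, -0.061 to 0.061 for Etfb, -0.060 to 0.023 for Etfdh, -0.12 to 0.00060 for Hsd17b4, -0.076 to 0.013 for Acaa1a, -0.12 to 0.047 for Scp2 and -0.065 to 0.036 for Abcd3.

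No paired analysis was possible because 3 is the only number found in both groups, and it names different animals.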
